A study of Homo sapiens with 9 samples.

Results

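The 1602 CpG sites described here lie in the megabases of the human autosomes where the sequence CCCGGG is rare. They were found by counting all listed CCCGGG sites in each 1 Mb bin of chromosomes 1 to 22 (hg19), taking the bins with 60 or fewer listed sites, and keeping the sites with a methylation value in all 9 libraries. Of 2734 autosomal bins with a listed site, 770 (28.2%) met this rule, and the 1602 sites in them are 2.75% of the 58310 autosomal sites measured in every library and part of 59751 such sites in the whole table. The rule used position only and no methylation value. They are called poor-megabase sites below and are compared with 36837 sites of the 500 bins that list 200 or more CCCGGG sites, called dense-megabase sites.

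DNA methylation was measured in HEK293T, a line from human embryonic kidney with the SV40 large T antigen, 4 days after lipofection with an empty pIRES plasmid, with a TET1-ALT plasmid or with a TET1-FL plasmid. Each group had 3 libraries, and lipofection, medium and time of harvest were shared by all groups. Whether the numbered replicates are separate cultures is not stated, so each p-value reflects the spread between libraries alone, which may be technical. How many cells took up plasmid, and how much of each TET1 form they made, were not analysed here.

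TET1 is a dioxygenase that oxidises 5-methylcytosine as a step towards an unmethylated cytosine. Full-length TET1 carries a CXXC domain, which binds CpG-rich unmethylated DNA, and the isoform named in the series' title lacks it. Megabases poor in CpG-rich sequence are as a rule gene-poor and late replicating, and in many cultured cells such DNA forms partially methylated domains, where methylation is lower than elsewhere. The CpG islands that occur in them are mostly kept unmethylated, as they are in other DNA. Neither replication timing nor islands were measured here.

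The assay, digital restriction enzyme analysis of methylation (DREAM), reads a CCCGGG site from the end that SmaI or XmaI leaves on a restriction fragment. The sites it measured in poor megabases were therefore compared first with those it did not measure. Poor bins listed 34983 sites, a median of 46 per bin, and 4.58% of these had a value in all 9 libraries, against 23.4% of 157101 listed sites in dense bins. At least 1 complete site was present in 483 of the 770 poor bins, with a median of 3 and a maximum of 13 sites among those bins, while all 500 dense bins held some. The share of listed poor-bin sites with a value was lowest in empty vector replicate 3 (4.76%) and highest in TET1-FL replicate 3 (5.59%), and the same 2 libraries were lowest and highest in dense bins (24.1% and 28.3%).

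Measured sites lay close to another CCCGGG site. Of the listed sites in poor bins, 83.6% had no other listed site within 1000 bases, and only 21 of those 29247 sites were complete (0.0718%). Of the 1775 listed sites with the nearest listed site at over 100 and up to 400 bases, 56.8% were complete. Poor-megabase sites thus come from local pairs and groups of CCCGGG within sparse DNA, and nearly all single CCCGGG sites of these megabases were not measured. Among sites with exactly 1 adjacent site within 1000 bases, 67.7% were complete at a spacing of over 100 and up to 150 bases and 41.9% at 450 to 500 bases, against 0.592% up to 50 bases and 7.14% at 500 to 1000 bases. In dense bins the same 4 shares were 80.5%, 53.7%, 2.39% and 9.94%. Size selection took agarose slices of 250 to 350 and 350 to 500 bases after adapters had been ligated. The median distance to the nearest listed site was 244 bases for poor-megabase and 230 for dense-megabase sites.

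**Figure D1:**
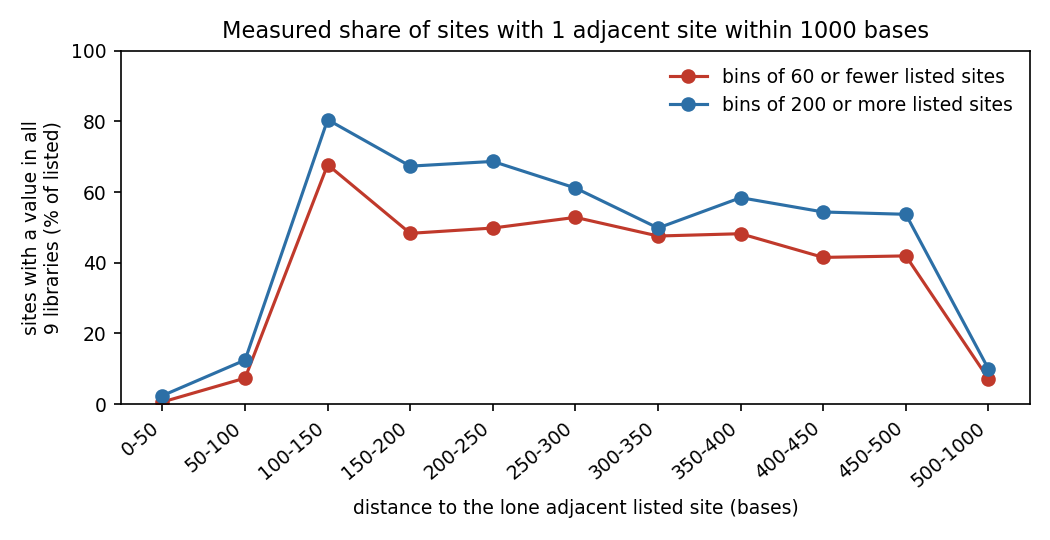
Percentage of listed sites with a value in all 9 libraries (vertical axis) by distance in bases to the only adjacent listed site within 1000 bases (horizontal axis), for poor bins (red) and dense bins (blue). Of the complete sites plotted, 85.2% in poor and 83.99% in dense bins have their neighbour over 100 and up to 500 bases away, and the poor bins have the lower share in each class, for example 67.7% against 80.5% at 100 to 150 bases.

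Unmethylated sites made up nearly as much of the poor-megabase set as all other levels together. By the mean over 9 libraries, 796 of 1602 sites (49.7%) were under 5% methylated, 169 (10.5%) were at 5 to 20%, 335 (20.9%) at 20 to 80%, 173 (10.8%) at 80 to 95% and 129 (8.05%) at 95% or more. Dense-megabase sites held 33.4%, 4.99%, 26.7%, 25.9% and 8.90% in these classes. Bins of 61 to 199 listed sites held 47.1% under 5%, so the high share of that class is not particular to poor megabases. It was 38.6% at 21 to 40 listed sites, 51.2% at 41 to 60, 51.8% at 61 to 80 and 52.0% at 81 to 120. The median level was 5.13% in poor and 56.4% in dense megabases, and the means were 29.5% and 47.5%. These shares are descriptions of the measured sites and carry no test.

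Sites of 5 to 20% and sites of 80 to 95% showed the largest relative departures. In each library taken alone, 10.4% to 11.3% of poor-megabase sites and 4.90% to 5.15% of dense-megabase sites were at 5 to 20%. At 80 to 95% the single-library shares were 9.80% to 10.9% and 24.7% to 25.4%. Within the broad class of 20 to 80% the mean was also lower, at 50.6% in poor and 56.7% in dense megabases. At the edge of the rule, bins of 51 to 60 listed sites held 834 complete sites with a mean of 31.8%, and bins of 61 to 70 held 1027 with a mean of 30.9%.

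**Figure D2:**
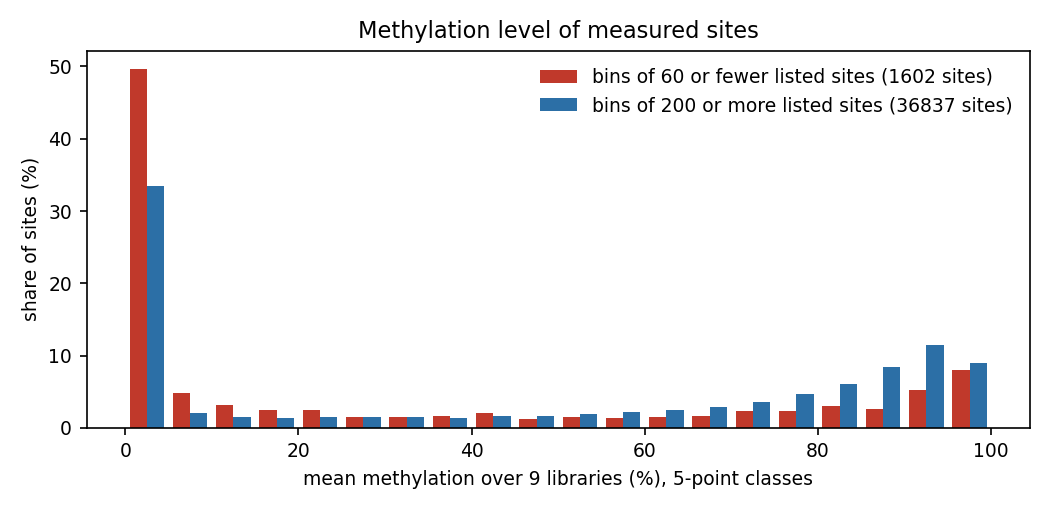
Share of sites in percent (vertical axis) by mean methylation over the 9 libraries in 5-point classes (horizontal axis) for the 1602 poor-megabase sites (red) and 36837 dense-megabase sites (blue). The lowest class holds 49.7% and 33.4%, and the poor-megabase bars are lower throughout the classes from 50 to 95%.

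Above the poor bins, the mean level was higher in each class of megabases than in the class before it, which had fewer listed sites. The mean over all complete sites was 31.5% in bins of 21 to 40 listed sites, 29.1% at 41 to 60, 31.0% at 61 to 80, 33.0% at 81 to 120, 38.9% at 121 to 199 and 47.5% at 200 or more. For sites of 20 to 95% alone the means were 53.8%, 65.0%, 65.6%, 69.7%, 70.7% and 72.4% in the same order. The 22 bins with 20 or fewer listed sites held only 20 complete sites and averaged 41.3%. Some poor bins are cut short by a chromosome end or a gap, and such a bin can list few sites without being sparse. Ends and gaps were not looked up. Instead, 40 of the 770 poor bins, with 57 complete sites, were marked by a stretch of at least 300000 bases without any listed site. Such a stretch may also be sparse DNA. Without these 40 bins, an alternative chosen after seeing the data, the TET1-FL difference from the empty vector given below was -1.31 instead of -1.33 points.

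Unmethylated poor-megabase sites were more clustered than methylated ones. At least 3 other listed sites lay within 1000 bases of 35.2% of the sites under 5%, but of 15.4% at 5 to 20%, 16.7% at 20 to 80%, 15.6% at 80 to 95% and 16.3% above. In dense megabases the shares were 64.3%, 38.2%, 31.0%, 30.1% and 33.5%. Joining complete sites within 1000 bases gave 831 clusters in poor megabases, of which 319 were single sites and 512 held 2 or more. Of those 512, all sites were under 5% in 239 (46.7%), all were at 20% or more in 153 (29.9%), and 33 (6.45%) held both a site under 5% and one of at least 20%. In dense megabases the 11358 clusters of 2 or more divided into 24.4%, 56.2% and 9.16%.

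Sites at 2 ends of 1 fragment can share reads and are not independent. Of the poor-megabase sites, 1031 (64.4%) belonged to a pair of adjacent listed sites at most 400 bases apart with both complete, which made 590 pairs. Across these pairs the 2 levels had a Pearson correlation of 0.836 (0.872 over 15324 dense-megabase pairs), but it was 0.346 over the 122 pairs with both sites at 20 to 95% (0.345 over 5688 dense pairs). The median gap within such a pair was 16.8 points in poor and 11.4 points in dense megabases. Partners of sites under 5% were themselves under 5% in 93.9% of cases. Partners of sites at 5 to 20% were in the same class in 38.8%, under 5% in 22.3% and at 20 to 80% in 30.1% of 103 cases, against 22.7%, 31.8% and 35.9% in dense megabases.

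The 4 clusters of at least 7 poor-megabase sites show the range of local patterns. On chromosome 1 from 107682926 to 107684924, 9 sites were all unmethylated, from 0.0278% to 1.13%, with means of 0.478% ± 0.0716 (SD, n = 3) in the empty vector, 0.294% ± 0.0565 in TET1-ALT and 0.344% ± 0.0660 in TET1-FL. On chromosome 14 from 33407145 to 33409186, 8 sites ran from 0.0622% to 93.2% within 2041 bases. On chromosome 7 from 49813127 to 49815199, 8 sites were at 43.1% to 91.0% and averaged 67.4% ± 2.07 in the empty vector, 68.8% ± 1.40 in TET1-ALT and 67.8% ± 2.13 in TET1-FL. The cluster on chromosome 8 from 46934596 to 46936308, in a bin of only 20 listed sites, had 7 sites between 1.76% and 89.1%. Unmethylated, methylated and mixed groups of CCCGGG thus all occur in these megabases, and the group means of the chromosome 7 cluster lay within 1.47 points of each other with overlapping libraries. No gene is named at any position, because the gene table used here is of another genome build.

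Poor bins were unevenly spread over chromosomes. They made up 96 of 190 bins on chromosome 4 (50.5%), 39 of 97 on chromosome 13 and 64 of 179 on chromosome 5, but 4 of 80 on chromosome 17, 3 of 58 on chromosome 19 and none of 36 on chromosome 22. The mix of levels also differed between chromosomes. On chromosome 18 the 45 poor-megabase sites averaged 5.64% with 84.4% of them under 5%, while the 95 on chromosome 13 averaged 39.9% with 26.3% under 5%. Chromosome 4, with the most sites (182), averaged 33.5%, and chromosome 3, with 155, averaged 21.9%.

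Adjoining poor bins formed 329 runs, of which 40 were 5 or more bins long. The longest spanned 13 bins on chromosome 4 from 58000000 to 70999999, with 568 listed and 11 complete sites and 9 bins without any complete site. None of the 11 was under 5%. Their 9-library means were 91.6% at 58060745, 14.7% at 58144660, 23.8% at 58145186, 10.7% at 58303968, 25.2% at 58473065, 10.3% at 60384281, 7.64% at 60384479, 98.0% at 68643850, 57.3% at 70540169, 38.5% at 70609489 and 8.93% at 70966981. Low to intermediate values thus prevailed, with 5 sites at 5 to 20%, and the mean of the run was 35.8% ± 0.743 (SD, n = 3) in the empty vector, 35.3% ± 1.29 in TET1-ALT and 34.3% ± 0.579 in TET1-FL. The next longest run, 12 bins on chromosome 13 from 61000000 to 72999999, had 31 complete sites averaging 47.2%, of which 11 were under 5% and 16 at 20 to 95%. On chromosome 18 the run from 35000000 to 42999999 averaged 3.38% over 11 sites.

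Among poor bins with at least 5 complete sites (114 bins), the lowest means were 0.0633% on chromosome 6 at 80000000 to 80999999, 0.0876% on chromosome 12 at 40000000 to 40999999 and 0.0913% on chromosome 5 at 109000000 to 109999999, with 5, 6 and 5 sites. The highest were 95.8% on chromosome 7 at 124000000 to 124999999 (5 sites in 1 cluster) and 83.8% on chromosome 9 at 82000000 to 82999999 (7 sites). Next came 79.7% in the bin on chromosome 21 starting at 48000000 (6 sites), which may be cut short. The chromosome 21 bin had a stretch of 882635 bases without any listed site, so its 20 listed sites lie close together. Few measured sites decide such means: 136 of the 483 bins with a complete site held only sites under 5%, 52 held only sites of 80% or more, and 78 held both kinds.

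The spread between libraries was slightly wider in poor megabases at like level. The median SD within a group, averaged over the 3 groups, was 2.46 points for 86 poor-megabase sites of 20 to 35% against 2.30 in dense megabases, 3.11 against 2.66 at 35 to 50%, 3.04 against 2.82 at 50 to 65%, 2.84 against 2.55 at 65 to 80% and 2.01 against 1.83 at 80 to 95%. The number of reads behind a value is known only to be 20 or more.

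The comparison of TET1-FL with the empty vector asked whether full-length TET1 changed methylation in these megabases. Methylated poor-megabase sites were lower in all TET1-FL libraries than in all empty vector libraries, by 1.33 points on average. The 508 sites of 20 to 95% averaged 64.2%, 64.3% and 63.8% in empty vector replicates 1, 2 and 3 and 62.3%, 63.1% and 62.9% in TET1-FL replicates 1, 2 and 3. The groups did not overlap, with means of 64.1% ± 0.227 and 62.8% ± 0.403 (SD, n = 3) and a difference of -1.33 points. Its 9 pairwise library differences ran from -1.94 to -0.765, which is also the exact 90% interval of a constant shift. The two-sided exact permutation p was 0.1, the smallest that 20 assignments of 3 against 3 libraries allow, and 0.233 after Benjamini-Hochberg adjustment over 21 comparisons (7 site sets by 3 group contrasts), so the difference could not pass 0.05. With libraries centred on autosomal sites of 80% or more it was -0.380 points.

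By class, the TET1-FL mean was lower in all 5. Sites of 20 to 80% had 49.7% ± 0.401 in TET1-FL against 51.2% ± 0.157 in the control (-1.49 points, pairwise -1.97 to -0.892). Those of 80 to 95% went from 89.0% ± 0.366 in the control to 88.0% ± 0.554 in TET1-FL (-1.02, pairwise -1.89 to -0.0995) and those of 5 to 20% from 11.3% ± 0.128 to 10.9% ± 0.113 (-0.415). Library ranges were apart in these classes and in the sites under 5% (0.692% ± 0.0426 and 0.618% ± 0.0200, difference -0.0742). They overlapped at 95% or more, where the difference was -0.236 (pairwise -0.650 to 0.204, exact permutation p = 0.3). Over all 1602 sites the difference was -0.521 points (29.7% ± 0.0845 and 29.2% ± 0.140), without overlap and again with an exact permutation p = 0.1.

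At like methylation the shift was smaller in poor than in dense megabases, by an amount that the libraries could not establish. The dense-megabase sites of 20 to 95%, weighted in 5-point classes to the levels of the poor-megabase sites, averaged 64.4% ± 0.354 in the empty vector and 62.7% ± 0.282 in TET1-FL, a difference of -1.69 points. The poor minus weighted dense value was -0.381, -0.429 and -0.189 points in the 3 empty vector libraries and -0.129, 0.0693 and 0.147 in the 3 TET1-FL libraries. The 2 groups did not overlap, and the TET1-FL mean exceeded that of the empty vector by 0.362 points (pairwise 0.0600 to 0.576, two-sided exact permutation p = 0.1, adjusted 0.21). It was 0.225 with 1 site per cluster (exact permutation p = 0.4), where library ranges overlapped, and 0.883 in bins of 40 or fewer listed sites (exact permutation p = 0.3). At 5 to 20% the corresponding difference was 0.406 points (0.278 to 0.553) and at 20 to 80% 0.451 points (0.0827 to 0.773), while at 80 to 95% it was 0.189 with overlap (-0.299 to 0.828).

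**Figure D3:**
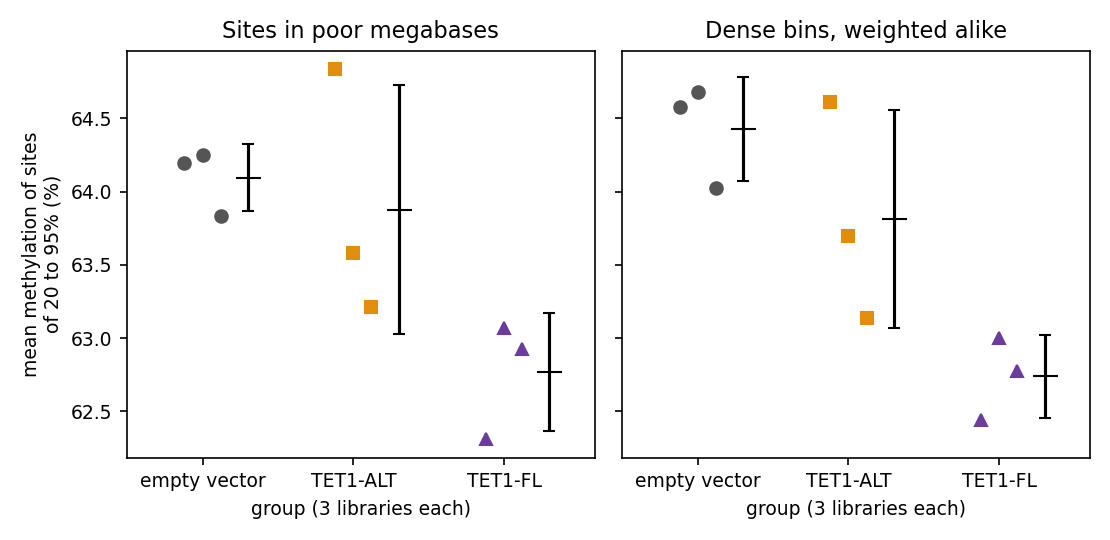
Mean methylation in percent of sites of 20 to 95% (vertical axis, not from 0) in each library, by group, for the 508 poor-megabase sites (left) and for dense-megabase sites weighted to the same levels (right); black marks are the group mean and SD of 3 libraries. TET1-FL lies below the empty vector in both panels, by 1.33 points on the left and 1.69 on the right.

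Site by site, 354 of the 508 sites of 20 to 95% (69.7%) had a lower mean in TET1-FL than in the empty vector, with a median difference of -1.24 points. Over all 28188 such sites of the table the share was 74.98% and the median -1.49. All TET1-FL values were under all empty vector values at 61 of the 508 (12.01%), where 16.6% of all sites of this range did so, and above them at 10 (1.97%), where 1.71% did. Over all 1602 sites the counts were 191 below (11.9%, with 14.9% in the whole table) and 44 above (2.75%, with 2.13%). In limma 0 of the 1602 sites were called at an adjusted p under 0.05, as were 0 of all 59751 (0%). At an unadjusted p under 0.05 there were 149 poor-megabase sites, 126 of them lower in TET1-FL. Among all sites, 10.8% passed in either direction and 9.72% were lower.

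The lower level was seen far from measured unmethylated sites. Most poor-megabase sites of 20 to 95% (388, or 76.4%) lay over 100000 bases from the nearest complete site under 5%, against 11.5% of the dense-megabase ones. Poor bins held 2.08 complete sites per bin and dense bins 73.7, so unmethylated sites that were not measured may lie nearer. In those 388 sites the TET1-FL mean was 62.7% ± 0.382 and the empty vector mean 64.0% ± 0.241, a difference of -1.33 points without overlap. The 60 sites at 10000 to 100000 bases differed by -1.62 without overlap, the 20 at 1000 to 10000 bases by -0.848 with overlap (pairwise -1.99 to 0.0450) and the 40 within 1000 bases by -1.11 with overlap (pairwise -3.51 to 0.607). By local density, the 425 sites with at most 2 listed neighbours within 1000 bases differed by -1.47 points without overlap. The 83 with 3 or more differed by -0.605 points with overlap (-1.51 to 0.555, exact permutation p = 0.3), and whether these values differ was not tested. In dense megabases the differences by local density were -1.64 and -1.54 points. By distance, from nearest to farthest, they were -1.71, -1.58, -1.61 and -1.59 there, and libraries did not overlap in any of these dense-megabase sets.

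Chromosomes with at least 20 poor-megabase sites of 20 to 95% were then taken apart. The TET1-FL mean was lower on all 11 of them, from -0.581 points on chromosome 4 (61 sites) to -2.21 on chromosome 9 (24 sites). Library ranges were apart on chromosomes 1, 2, 3, 12 and 13 and overlapped on 4, 5, 6, 7, 8 and 9. On chromosome 13 the 44 sites went from 62.0% to 59.9%.

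**Figure D4:**
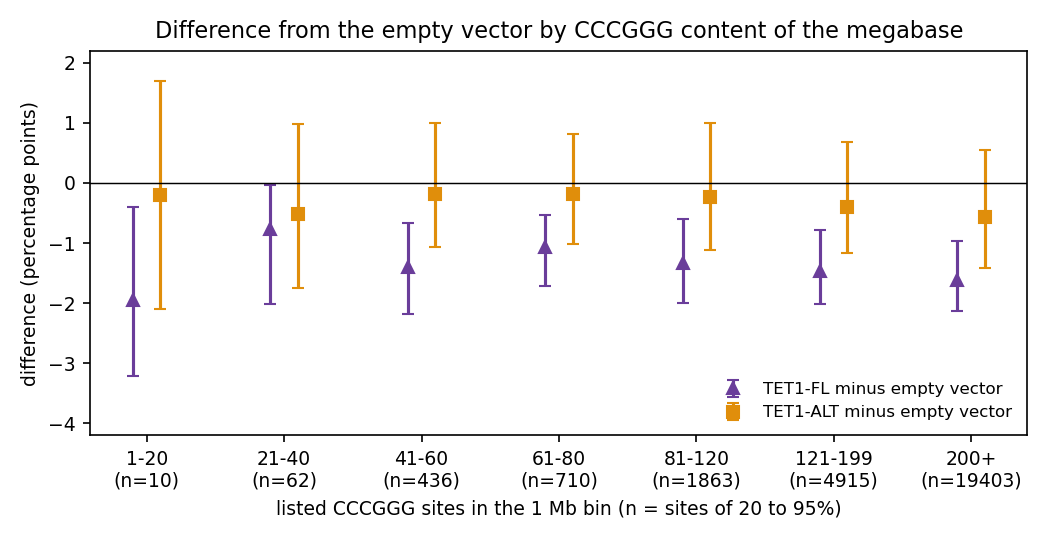
Difference from the empty vector in percentage points (vertical axis) for sites of 20 to 95% by the number of listed CCCGGG sites in the megabase (horizontal axis), with bars for the range of all 9 pairwise library differences. TET1-FL points (triangles) are below 0 in every class, from -1.94 to -0.765, and TET1-ALT bars (squares) cross 0 in every class. The -1.94 rests on 10 sites, 4 of them in the chromosome 21 bin starting at 48000000, whose listed sites lie close together.

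Across megabases of increasing CCCGGG content the TET1-FL difference at sites of 20 to 95% was -1.94 points in bins of up to 20 listed sites (10 sites), -0.765 at 21 to 40, -1.39 at 41 to 60, -1.06 at 61 to 80, -1.33 at 81 to 120, -1.47 at 121 to 199 and -1.61 at 200 or more. Their pairwise ranges overlapped one another. Of the 10 sites in bins of up to 20 listed sites, 6 lie in the chromosome 8 bin starting at 46000000. The other 4 lie in the chromosome 21 bin starting at 48000000, which has a stretch of 882635 bases without any listed site. The value of -1.94 may therefore not describe sparse DNA. The classes of CCCGGG content differ in mean level, which the weighted comparison above holds alike.

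Single poor megabases could be tested where at least 5 sites of 20 to 95% were complete, which left 13 poor bins among 1121 autosomal bins. In limma none of the 13 passed for TET1-FL against the empty vector (0 called), where 3.03% of all bins were called. At an unadjusted p under 0.05 there were 3 of 13, all lower in TET1-FL, where 42.9% of all bins reached that level and 42.6% were lower. The median difference of the 13 was -0.443 points and that of all 1121 was -1.54. The median of the 13 rests on few libraries and sites: it was -0.0400 without empty vector replicate 1, -0.996 without TET1-FL replicate 3 and 0.505 after the centring of libraries. With at least 3 sites per bin it was -1.17 over 63 poor bins and -1.53 over all 1444 bins. In that setting 14 of the 63 had an unadjusted limma p under 0.05, all lower in TET1-FL. Of all 1444 bins 509 did so, 505 of them lower. Leaving out TET1-ALT replicate 1, which takes part only in the shared estimate of spread, gave 2 called poor bins of 13 (15.4%), where 18.0% of all bins were called.

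The 5 most negative differences among the 13 bins were as follows. The bin of chromosome 9 starting at 82000000 (5 sites) had 81.0%, 82.3% and 79.5% in the empty vector and 74.8%, 77.8% and 78.3% in TET1-FL, without overlap (limma: -3.94 points, adjusted p = 0.0745). That of chromosome 8 starting at 31000000 had 74.0%, 75.2% and 74.5% against 71.6%, 72.9% and 70.9% (limma: -2.75 points, adjusted p = 0.0536). Both bins had TET1-FL wholly below the empty vector, and neither passed the threshold. The bin on chromosome 9 starting at 141000000 (43 listed sites), which may be cut short, went from 64.2% ± 1.68 to 61.7% ± 1.85 (limma adjusted p = 0.0958), with overlap. Chromosome 14 from 62000000 to 62999999 had 60.4% ± 1.75 and 58.5% ± 1.30, and chromosome 8 from 46000000 to 46999999 had 55.1% ± 0.538 and 53.9% ± 0.781, the latter with libraries apart. The bin starting at 46000000 listed only 20 sites. The 3 positive differences were 2.79 points on chromosome 8 from 72000000 to 72999999 (68.0% ± 2.26 and 70.8% ± 2.14), 1.33 on chromosome 13 from 91000000 to 91999999 and 0.395 on chromosome 7 from 49000000 to 49999999, all with overlapping libraries.

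**Figure D5:**
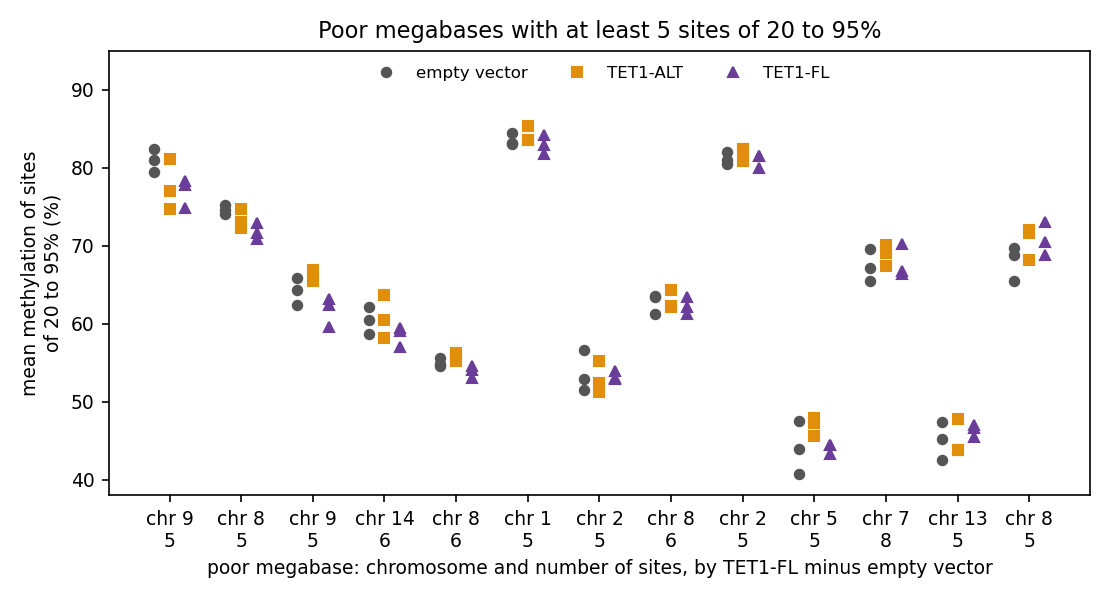
Mean methylation in percent of sites of 20 to 95% (vertical axis, not from 0) in each of the 9 libraries for the 13 poor megabases with at least 5 such sites, ordered by TET1-FL minus empty vector and labelled with chromosome and number of sites. TET1-FL triangles lie wholly below the empty vector circles in the bins that differ by -3.94, -2.75 and -1.17 points.

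Poor-megabase sites whose TET1-FL libraries lay outside the empty vector range with means at least 10 points apart numbered 4, all lower in TET1-FL. These are 0.250% of the 1602 sites, where 0.32% of all sites were lower and 0.117% higher by that rule. The 3 most negative were on chromosomes 13 and 20. The site on chromosome 13 at 64416817 had 84.1%, 89.2% and 89.1% in the empty vector, 75.8%, 78.0% and 74.4% in TET1-ALT and 80.9%, 75.8% and 41.6% in TET1-FL. One library sets the size of this difference, which was -21.4 points and -9.12 without TET1-FL replicate 3 (limma adjusted p = 0.456). On chromosome 20 at 8916756 the values were 28.7%, 48.0% and 25.1% in the empty vector and 24.8%, 19.8% and 18.4% in TET1-FL, a difference of -12.95 points and -5.93 without empty vector replicate 2 (limma adjusted p = 0.463). On chromosome 13 at 81915171 they were 47.4%, 57.6% and 57.8% against 46.9%, 46.3% and 34.5% (difference -11.7, and -7.69 without TET1-FL replicate 3, limma adjusted p = 0.473). The site 96 bases from the last one averaged 60.7% in the empty vector and 59.2% in TET1-FL.

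Methylated poor-megabase sites of TET1-ALT overlapped those of the empty vector. Sites of 20 to 95% averaged 64.8%, 63.6% and 63.2% in TET1-ALT replicates 1, 2 and 3, so replicate 1 lay above all empty vector libraries and replicates 2 and 3 below them. The mean was 63.9% ± 0.851 against 64.1% ± 0.227, a difference of -0.218 points with single library pairs between -1.04 and 1.00 (p = 0.7 in the exact permutation test). Single libraries decide this value: it was -0.698 without TET1-ALT replicate 1, -0.0706 without replicate 2 and 0.113 without replicate 3. Library ranges overlapped in all 5 classes. The differences were -0.305 points at 20 to 80% (pairwise -1.34 to 1.23), -0.0498 at 80 to 95% (-0.457 to 0.561) and -0.0565 under 5% (-0.155 to 0.0203). Over all 1602 sites it was -0.124 points (-0.409 to 0.323, exact permutation p = 0.6).

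TET1-ALT shares the empty vector libraries with the comparison above. Its poor minus weighted dense value was 0.223, -0.115 and 0.0764 points in replicates 1, 2 and 3, all above the empty vector values, on average by 0.395 points (0.0744 to 0.652, two-sided exact permutation p = 0.1, adjusted 0.21), with dense-megabase sites at -0.613. It was 0.123 with bins shifted by 0.5 Mb (exact permutation p = 0.4) and 0.198 in bins of 40 or fewer listed sites (exact permutation p = 0.6). In limma 0 of 1602 sites (0% of all sites) and 0 of 13 bins (0% of all bins) were called, with 111 sites and 1 bin at an unadjusted p under 0.05, where 7.22% of all sites and 6.33% of all bins reached that level. Of these, 87 sites and the 1 bin were lower in TET1-ALT, as were 5.49% of all sites and 5.35% of all bins. TET1-ALT libraries lay below the empty vector at 26 of 508 sites of 20 to 95% (5.12%, with 7.59% among all sites) and above at 14 (2.76%, with 3.21%). Over all 1602 sites the counts were 143 below (8.93%, with 10.1%) and 50 above (3.12%, with 3.14%).

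Sites apart by at least 10 points between TET1-ALT and the empty vector numbered 3 lower (0.187%, with 0.177% among all sites) and 2 higher (0.125%, with 0.0971%). The site on chromosome 1 at 98519070 had 73.2%, 79.98% and 97.3% in the empty vector and 72.9%, 65.8% and 53.0% in TET1-ALT, a difference of -19.6 points and -12.7 without empty vector replicate 3. It lies 87 bases from a site that averaged 88.4% in the empty vector and 89.7% in TET1-ALT. The value of 88.4% is within the range of the 3 empty vector libraries at 98519070 itself. A site 511 bases away averaged 1.14% and 1.23% in these groups, so methylated and unmethylated sites occur within 1 kb. The other lower sites were the one on chromosome 13 at 64416817 (difference -11.4) and one on chromosome 17 at 50236809 (18.1% ± 4.36 and 7.85% ± 3.61). At both, TET1-FL was also wholly below the same empty vector libraries, with 6.97% ± 1.15 at the chromosome 17 site. Higher in TET1-ALT were the site of chromosome 2 at 104942856 (60.4% ± 7.09 and 77.1% ± 1.89) and that of chromosome 9 at 30411704 (7.38% ± 0.663 and 18.0% ± 7.30, difference 10.6, and 6.51 without TET1-ALT replicate 3). Limma adjusted p-values of these 5 sites were 0.673 to 0.867.

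Between the 2 TET1 forms, methylated poor-megabase sites were lower in TET1-FL. At 20 to 95% the difference was -1.11 points (62.8% ± 0.403 and 63.9% ± 0.851, pairwise -2.53 to -0.144), without overlap and with an exact permutation p = 0.1. In exact permutation tests it was -0.629 without TET1-ALT replicate 1 (p = 0.2), -0.455 in bins of 40 or fewer listed sites (p = 0.7) and -0.428 after that centring of libraries (p = 0.4). In the last 2 settings the libraries overlapped. Sites of 80 to 95% differed by -0.971 (-1.76 to -0.334) without overlap, and sites of 20 to 80% by -1.18 (-2.92 to 0.171, exact permutation p = 0.2) with overlap. The poor minus weighted dense value differed by -0.0325 points (-0.352 to 0.262, p = 0.7 by exact permutation), and the libraries of both forms overlapped. In the 169 sites of 5 to 20% it was 0.257 points (0.0957 to 0.391), without overlap. In limma 0 sites (0% of all) and 0 of 13 bins were called, where 0.0892% of all bins were called, and 2 of the 13 bins had an unadjusted p under 0.05, both lower in TET1-FL, where 18.2% of all bins did and 17.9% were lower. Of the sites, 72 had an unadjusted p under 0.05 (5.55% of all sites did) and 54 of them were lower in TET1-FL (4.46%). TET1-FL lay below TET1-ALT at 51 of 508 sites of 20 to 95% (10.04%, with 11% among all sites) and above at 7 (1.38%, with 1.99%). Over all 1602 sites the counts were 90 below (5.62%, with 7.36%) and 36 above (2.25%, with 1.94%). The 3 lower sites with means at least 10 points apart were the one on chromosome 9 at position 141015117 (79.8% ± 7.54 in TET1-FL, 92.8% ± 4.76 in TET1-ALT), the chromosome 2 site named above (65.5% ± 7.14, 77.1% ± 1.89) and 71975038 on chromosome 12 (62.3% ± 4.08, 72.8% ± 5.48). Limma adjusted p-values were 0.855 to 0.877, and no site was higher by that rule. Among all sites 0.105% were lower and 0.0435% higher by it, and the 3 sites are 0.187% of the 1602. The chromosome 9 site lies in the bin starting at 141000000, which may be cut short.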

How the data were processed

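The authors deposited 1 table of methylation percentages at CCCGGG sites, in percent from 0 to 100, named on hg19 per the file headers and the submitters' processing notes. Per the labels, values are the share of methylated reads corrected for enzyme efficiency with spiked-in standards and rest on at least 20 reads. Libraries had 18 PCR cycles. Aligner, caller and molecular identifiers: not given in the sources used here. Depth per site is unknown, and intervals that rest on depth were left out.

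Of 382289 listed genomic sites, 357624 lay on autosomes. The 21 rows that name no genomic site were left out. Sites were classed by their 9-library mean. Library means were compared by two-sided exact permutation tests. Dense-megabase sites were weighted over 5-point classes (1-point under 5%). limma 3.58.1 (R 4.3.3, trend and robust moderation, a mean per group, all 9 libraries) was fitted to all 59751 complete sites and to 1121 bins, with Benjamini-Hochberg adjustment; sites and bins were called at an adjusted p under 0.05. Scripts were tested on simulated data. Sites were named by separation of the libraries and a difference of at least 10 points, the 3 largest each way and at most 1 per 1000 bases; bins by the 5 most negative and 3 most positive differences, the 3 lowest and highest means and the longest run. The clusters, further runs and chromosomes named were chosen by size or after their values were seen. The members and rules were chosen with earlier results of these data known. Genes and sequences were not analysed here.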

Additional observations from a re-analysis of the deposited data

How the results depend on the processing

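The difference between TET1-FL and the empty vector at poor-megabase sites of 20 to 95% kept its sign in all 9 alternatives and all 9 leave-one-out settings (-1.48 to -1.10 when each library was left out). Of these settings, the replicate block and the omission of a TET1-ALT library cannot change this difference. Centring each library on its mean at sites of 80% or more gave -0.380 points, an adjustment that adds 1 constant per library and so also shifts unmethylated sites. That centring turned 4 results: the difference over all 1602 sites became 0.427 for TET1-FL, 0.143 for TET1-ALT and 0.284 between the forms, and that of TET1-ALT at 20 to 95% became 0.0482. With it the count of called poor-megabase sites for TET1-FL against the empty vector was 566 (35.3%), beside 0. Of these, 560 were higher in TET1-FL, and 30.2% of all sites were called, most of them higher too (17529 of 18059). Leaving out single libraries gave -0.698 to 0.113 for TET1-ALT at 20 to 95%, and 0 to 2 called poor bins of 13 for TET1-FL. The setting that gave 2, without TET1-ALT replicate 1, called 202 of all 1121 bins (18.0%), beside 34. The poor minus weighted dense difference of TET1-FL and of TET1-ALT from the empty vector stayed positive in all 13 alternatives each. Among these, centring and the replicate block leave it unchanged by construction. Between the forms the poor minus weighted dense difference was -0.0325 points. It turned to 0.685 at 40 or fewer and 0.0967 at 80 or fewer listed sites, and to 0.221 with shifted bins. Adding sites with a value in 2 of 3 libraries of each group gave 0.139. Leaving out the 40 bins with a long stretch without listed sites gave 0.0151. Over single libraries left out it ran from -0.121 to 0.0483. The causes were not tested. Testing bins with at least 10 sites of 20 to 95% gave no value, since no poor bin held so many of that range.

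Replicate numbers did not pair the libraries: correlations of same-numbered deviations ran from -0.0153 to 0.0169. With the replicate block the differences were unchanged by construction (-1.33 points for TET1-FL at 20 to 95%, exact sign-flip p = 0.25, the smallest possible), and in limma 0 poor-megabase sites and 0 poor bins were called in each comparison. Of all sites 0 were called as well. Of all 1121 bins, 32 (2.85%) were called for TET1-FL against the empty vector and 0 in the other comparisons.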

Other observations

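A further 476 sites of poor bins had a value in some libraries but not in all. Of these, 92 had a value in 1 library and 105 in 8, and their median level over the libraries with a value was 13.5%. Sites under 5% made up 38.9% of them and sites of 20 to 95% made up 38.2%, against 49.7% and 31.7% of the complete sites. Values were present in TET1-FL libraries alone at 56 sites, in TET1-ALT libraries alone at 33 and in empty vector libraries alone at 11. The empty vector group also held the library with the fewest values and the TET1-FL group the one with the most, in poor and in dense bins. Sites with values in 1 group alone were not counted in other bins, so these counts are not particular to poor megabases on this evidence.

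The 21 complete poor-megabase sites without a listed neighbour within 1000 bases had levels from 0.0722% to 98.1%, with a median of 37.1%. Of these, 7 were under 5%, 2 at 5 to 20%, 5 at 20 to 80%, 4 at 80 to 95% and 3 above.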
